A study of Mus musculus with 9 samples.

Results

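The 7 genes described here encode proteins that tether, prime, build, branch and break down glycogen, the branched storage polymer of glucose. They are Stbd1, Gys1, Gyg, Gbe1, Pygb, Pygl and Ppp1r3c, and they were taken by symbol from the 51810 genes of the deposited expression table. All 7 were found, each at 1 annotated locus. The set was chosen by its role in glycogen metabolism with the TPM differences of these libraries known. Which comparison of treatments led to the choice of Stbd1 is not known, so all of them are treated as used. The values of the 7 genes are therefore given as a description, and no test of them is read as evidence. RNA was sequenced from valvular interstitial cells, which resemble fibroblasts and make up the body of the heart valve leaflet. The cells came from both the aortic and the mitral valve of C57BL/6J mice, with no genetic change named in the labels. Over 24 h, 3 samples each received oxidised low-density lipoprotein (oxLDL) at 50 ug/mL, native low-density lipoprotein (LDL) at 50 ug/mL, or buffer alone (Control, called untreated in one label). All 3 groups shared a medium with 10% fetal serum, insulin at 5 ug/mL, EGF at 2 ng/mL and basic FGF at 0.5 ng/mL. The labels do not say whether the 3 libraries of a treatment came from separate animals or cultures, so the spread between them may be technical.

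Glycogen is started by glycogenin, a protein that attaches the first glucose units to itself. Glycogen synthase lengthens the chains and the branching enzyme adds side chains. Phosphorylase releases glucose phosphate from glycogen in the cytosol, and acid alpha-glucosidase digests glycogen that has reached the lysosome. Stbd1 binds glycogen through a starch-binding domain, sits in membranes of the endoplasmic reticulum, and is known from human and mouse cells to bind Gabarapl1, a protein of autophagosomes. Insulin, present in the medium of every culture, is a known activator of glycogen synthase.

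Values are TPM, transcript abundances scaled to a fixed total after correction for length, so levels of different genes can be compared. Differences between treatments are on the scale of log2(TPM + 1), where a pseudocount of 1 understates the change of low genes. They come with 95% confidence intervals from 1 limma model over all 9 libraries, with no term for the replicate number. The 3 comparisons share libraries in pairs, so their values for one gene are not independent. Reads per library are unknown because TPM keeps no depth. The 10 markers of valve interstitial cells and fibroblasts were all present, with summed levels of 12828 to 15365 TPM with oxLDL, 12791 to 14203 TPM with LDL and 13625 to 14841 TPM in Control. Macrophage and leukocyte markers, 10 of 10 with a mean of at least 1 TPM, summed to 114 to 717, 245 to 696 and 253 to 480 TPM in the same order, and endothelial markers, 8 of 8, to 133 to 318, 136 to 338 and 130 to 301 TPM. In bulk RNA, fewer cells of a type and less RNA per cell cannot be told apart.

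Stbd1 lies on chromosome 5 from 92603041 to 92606579 on the plus strand of GRCm38, in 2 exons with no annotated gene overlapping it. Its transcript level was 24.2, 23.6 and 26.7 TPM in the oxLDL libraries, 43.7, 46.5 and 50.6 TPM in the LDL libraries, and 29.3, 27.6 and 27.7 TPM in the Control libraries. The 3 LDL libraries stood above all 6 others. The 3 oxLDL libraries lay just below the 3 Control libraries without overlapping them. Stbd1 averaged 46.9 ± 3.44 TPM with LDL, against 28.2 ± 0.987 TPM in Control (SD, n = 3 each), a 1.66-fold higher level and a log2 difference of 0.71 (95% CI 0.54 to 0.89). With oxLDL it averaged 24.9 ± 1.64 TPM against 46.9 ± 3.44 TPM with LDL (SD, n = 3 each), a log2 difference of -0.89 (95% CI -1.07 to -0.71). Between oxLDL and Control the log2 difference was -0.18, and its 95% CI of -0.35 to 0.0016 reached past 0. The order of the group means was LDL, Control, oxLDL.

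Deviations from the group means were shared between libraries of one replicate number, so ratios within a number are also given. Stbd1 was 1.49, 1.69 and 1.83 times as high with LDL as in Control in replicates 1, 2 and 3. The ratio of oxLDL to LDL was 0.554, 0.508 and 0.529, and that of oxLDL to Control 0.826, 0.858 and 0.965. Each of the 3 numbers gave the same order of the treatments, which any pairing would give because the 3 groups did not overlap.

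**Figure D1:**
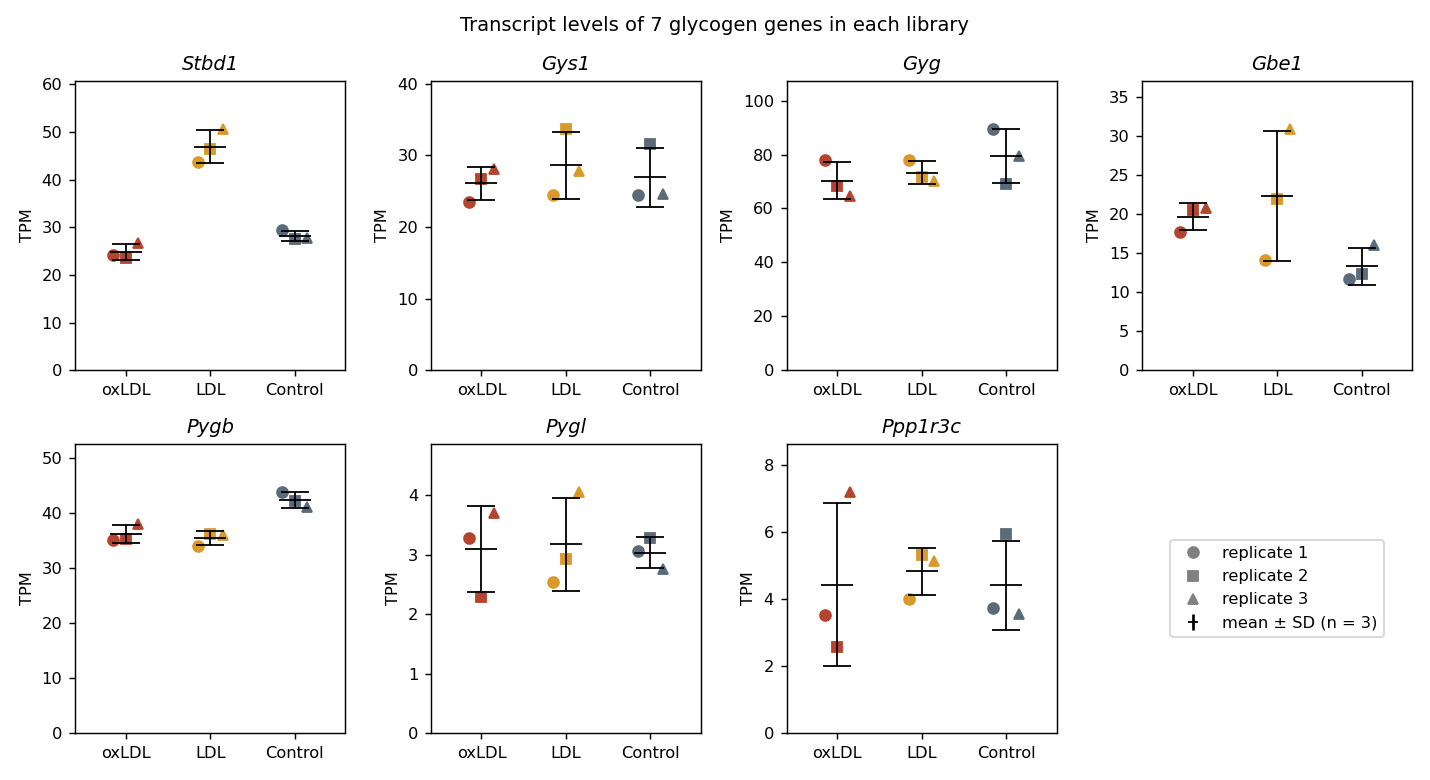
TPM (vertical axes, each from 0) of the 7 glycogen genes in the 9 libraries, by treatment, with symbols for the replicate number and bars for the mean ± SD of 3 libraries. Stbd1 is at 43.7 to 50.6 TPM in the LDL libraries and at 23.6 to 29.3 TPM in all others, while Pygb is at 34.0 to 38.1 TPM with either lipoprotein and at 41.1 to 43.9 TPM in Control.

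The sequence just upstream of Stbd1 is shown because Stbd1 is the gene of the set whose level differs between LDL and both other treatments, beside that of Ppp1r3c, which has matches that Stbd1 lacks. Both are the 250 bases before the RefSeq transcript start in GRCm38.p6, read 5′ to 3′ on the gene's strand, chr5:92602801-92603050 on the plus strand for Stbd1 and chr19:36736605-36736854 on the minus strand for Ppp1r3c. In the Stbd1 sequence capitals mark GGGCGG, the GC box, and in that of Ppp1r3c they mark ACGTG, the core of the hypoxia response element, on either strand.
Stbd1: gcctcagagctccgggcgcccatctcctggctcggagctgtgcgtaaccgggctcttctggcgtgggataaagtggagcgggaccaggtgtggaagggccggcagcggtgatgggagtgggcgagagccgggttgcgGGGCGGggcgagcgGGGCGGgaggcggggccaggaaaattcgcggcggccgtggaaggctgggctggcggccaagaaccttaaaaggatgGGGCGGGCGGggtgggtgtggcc
Ppp1r3c: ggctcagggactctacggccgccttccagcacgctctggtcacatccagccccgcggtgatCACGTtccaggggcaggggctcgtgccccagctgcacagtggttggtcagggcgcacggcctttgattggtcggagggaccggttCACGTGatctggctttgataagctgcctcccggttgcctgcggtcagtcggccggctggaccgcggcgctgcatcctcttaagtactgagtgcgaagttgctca
The Stbd1 window is 71.2% G or C and holds GGGCGG starting at bases -113, -99, -23 and -19 from the transcript start, the last pair overlapping. That motif, added after the sequence was seen, occurs on either strand in 35.7% of all 32851 promoter windows of 300 bases (250 before and 50 after the start) and in 5 of the 7 windows of this set. Of the 4 other motifs searched on both strands, the Stbd1 window held none. ACGTG was in 4 of the 7 windows, those of Pygb, Gyg, Pygl and Ppp1r3c, and in 19.6% of all windows. CACGTG, the E-box, which contains ACGTG, was in those of Gyg and Ppp1r3c and in 7.15% of all windows. TGACNNNGC, the core of the antioxidant response element, and the direct repeat bound by PPAR (the PPAR response element) were in 0 of the 7 windows and in 12.4% and 0.0396% of all. A match or its lack describes these letters only.

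Over all 13495 genes tested, 45 passed limma at an adjusted p under 0.05 between LDL and Control (0.333%), 24 higher and 21 lower, or 23 higher and 11 lower after median-ratio scaling and 22 higher and 12 lower after quantile normalization. In that comparison 1 of the 7 glycogen genes, Stbd1, was among them. Groups of 2 of the 7, Stbd1 and Pygb, did not overlap, against 10.7% of all genes tested. At an unadjusted p under 0.05 in limma were 3 of the 7, Stbd1, Gbe1 and Pygb, against 6.65% of all genes tested. Between oxLDL and LDL 14 genes passed (0.104%), and again Stbd1 was the 1 of the 7. Stbd1 was also the 1 with groups that did not overlap (8.31% of all genes) and at an unadjusted p under 0.05 (3.91%). Between oxLDL and Control 2 genes passed (0.0148%) and 0 of the 7 in limma, with Pygb the 1 of the 7 at an unadjusted p under 0.05 (3.86% of all genes). Groups of 3 of the 7, Stbd1, Gbe1 and Pygb, did not overlap there, against 7.33% of all genes. Since these contrasts were known when the genes were chosen, nothing is read from the counts. With the replicate number as a block 115, 35 and 17 genes passed in the same order of comparisons, and the calls among the 7 were those of Stbd1, as before.

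The call of Stbd1 between LDL and Control depended on the libraries used. Its log2 difference was 0.70 without Control 2, 0.72 without LDL 2 and 0.66 without LDL 3, and it did not pass in these fits, nor in a fit of the LDL and Control libraries alone, where the difference was 0.71. Against LDL, the oxLDL difference did not pass without oxLDL 2 (log2 difference -0.86). In the other 13 and 16 of 17 alternative fits Stbd1 passed.

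**Figure D2:**
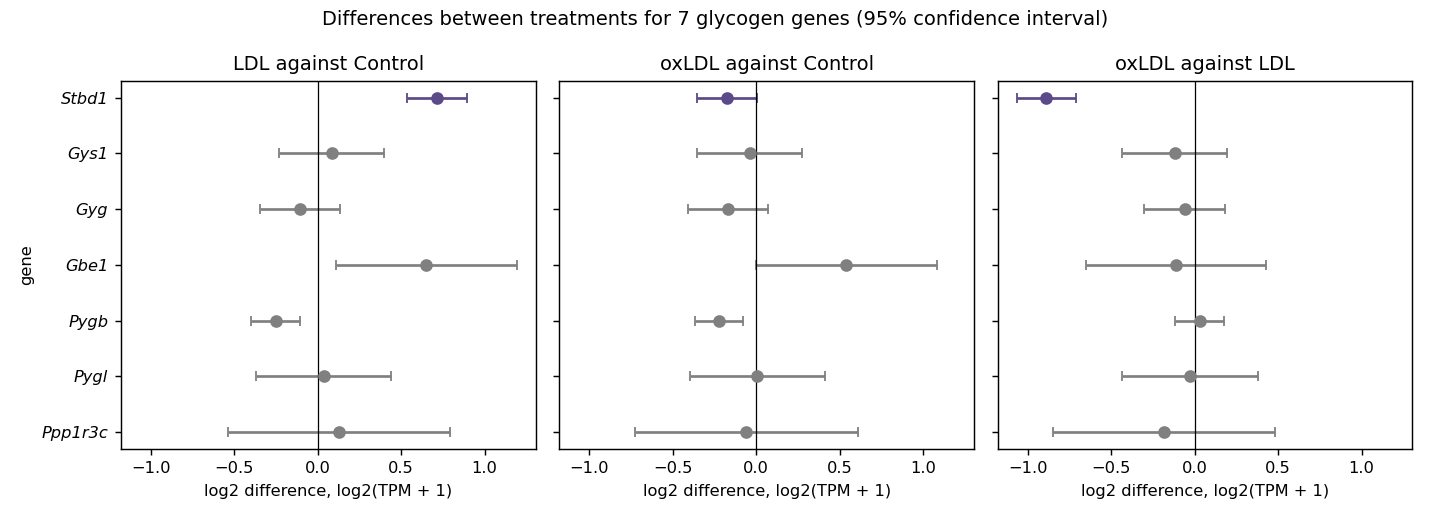
Log2 differences (horizontal axes, on the log2(TPM + 1) scale) of the 7 glycogen genes in the 3 comparisons, as points with 95% confidence intervals from limma. Stbd1 is at 0.71 for LDL against Control and at -0.89 for oxLDL against LDL, and the other 6 genes lie between -0.25 and 0.65 in every comparison.

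Among the biosynthetic enzymes, Gyg was the most abundant of the 7 genes and Gbe1 was the one with a higher mean in both lipoprotein groups. Gyg, the mouse glycogenin, lies on chromosome 3 (20122084 to 20155317, minus strand) and was at 78.1, 68.4 and 64.6 TPM with oxLDL, 78.2, 71.5 and 70.2 TPM with LDL, and 89.4, 69.2 and 79.6 TPM in Control. These groups overlapped, with log2 differences of -0.17 for oxLDL and -0.11 for LDL against Control. Gys1, the glycogen synthase of muscle and most other tissues (chromosome 7, 45434844 to 45456619, plus strand), was at 23.5, 26.7 and 28.1 TPM with oxLDL, 24.4, 33.7 and 27.8 TPM with LDL, and 24.5, 31.7 and 24.6 TPM in Control. Its groups overlapped in each comparison, and the log2 difference between LDL and Control was 0.08 (95% CI -0.23 to 0.40). Of the 100-base stretches in annotated Gys1 transcripts, 3.84% also occur in transcripts of Ruvbl2, which overlaps Gys1 on the other strand, and the library kit does not mark strand.

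Gbe1, the branching enzyme (chromosome 16, 70313949 to 70569716, plus strand), was at 17.7, 20.5 and 20.8 TPM with oxLDL, 14.2, 21.9 and 30.9 TPM with LDL, and 11.6, 12.3 and 16.0 TPM in Control. All 3 oxLDL libraries stood above the Control libraries, whereas LDL 1 fell within the Control range and LDL 3 was the highest of all 9. Gbe1 averaged 22.3 ± 8.37 TPM with LDL, against 13.3 ± 2.38 TPM in Control (SD, n = 3 each), a log2 difference of 0.65 (95% CI 0.11 to 1.19). That difference did not pass limma (adjusted p = 0.58). It depended on single LDL libraries and was 0.39 without LDL 3 and 0.93 without LDL 1. With oxLDL it averaged 19.7 ± 1.7 TPM, and the log2 difference from Control was 0.54 (95% CI -0.00024 to 1.08). Within replicate numbers Gbe1 was 1.22, 1.79 and 1.93 times as high with LDL as in Control, and 1.52, 1.67 and 1.3 times as high with oxLDL. Set against Gys1, the Gbe1 level was 0.743 to 0.769 of it in the oxLDL libraries, 0.579 to 1.11 in the LDL libraries and 0.388 to 0.652 in Control.

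Of the phosphorylases, the brain-type isoform Pygb supplied most of the transcripts and was lower with both lipoproteins. Pygb (chromosome 2, 150786735 to 150831758, plus strand) was at 35.1, 35.3 and 38.1 TPM with oxLDL, 34.0, 36.3 and 36.0 TPM with LDL, and 43.9, 42.1 and 41.1 TPM in Control. Neither lipoprotein group overlapped Control, and the oxLDL and LDL groups overlapped each other. Pygb averaged 35.4 ± 1.25 TPM with LDL, against 42.4 ± 1.39 TPM in Control (SD, n = 3 each), a log2 difference of -0.25 (95% CI -0.40 to -0.11). For oxLDL against Control the log2 difference was -0.22 (95% CI -0.37 to -0.08). Neither difference passed limma (adjusted p = 0.27 with LDL and 0.89 with oxLDL). The mean Pygb level was 0.836 of that in Control with LDL and 0.854 with oxLDL.

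Pygl, the liver-type phosphorylase (chromosome 12, 70190811 to 70231488, minus strand), was at 3.29, 2.29 and 3.71 TPM with oxLDL, 2.54, 2.93 and 4.06 TPM with LDL, and 3.07, 3.28 and 2.76 TPM in Control. Its groups overlapped in each comparison, with log2 differences from -0.03 to 0.03. The muscle-type Pygm, which is not one of the 7, averaged 0.827 ± 0.247 TPM with oxLDL, 0.843 ± 0.353 TPM with LDL, against 1.57 ± 0.866 TPM in Control (SD, n = 3 each). Pygb made up 90.3 ± 1.89% of the 3 phosphorylase transcripts with oxLDL, 89.8 ± 1.61% with LDL and 90.2 ± 1.68% in Control (SD, n = 3 each), so its share differed by less than the spread between libraries. The Pygl share was 7.68 ± 1.47% with oxLDL, 8.02 ± 1.70% with LDL and 6.46 ± 0.516% in Control (SD, n = 3 each), with overlapping ranges. The sum of the 3 was 38.2 to 42.6 TPM with oxLDL and 37.7 to 40.8 TPM with LDL, against 46.3 to 47.7 TPM in Control. The ratio of Gys1 to that sum was 0.651 ± 0.0532 with oxLDL, 0.725 ± 0.107 with LDL and 0.573 ± 0.0879 in Control (SD, n = 3 each), and these ranges overlapped. No 100-base stretch of Pygb or Pygl occurs in another gene's transcripts. Of the 31-base stretches, 0.796% of those of Pygb occur in Pygm, and 1.41% of those of Pygl occur in transcripts of other genes. Pygl overlaps the annotated gene F730035M05Rik on the other strand.

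Ppp1r3c (also called protein targeting to glycogen) brings protein phosphatase 1 to glycogen, where the phosphatase activates the synthase and inactivates phosphorylase. The gene lies on chromosome 19 from 36731731 to 36736653 on the minus strand. Its level was 3.52, 2.57 and 7.20 TPM with oxLDL, 4.01, 5.33 and 5.13 TPM with LDL, and 3.72, 5.95 and 3.56 TPM in Control. The oxLDL libraries held both the lowest and the highest value of the 9. The log2 difference was 0.13 for LDL against Control, with a 95% CI of -0.54 to 0.79, the widest of the 7 genes.

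The wider pathway was described with 6 lists holding 40 glycogen genes, of which 34 had a mean of at least 1 TPM. Those 6 lists covered synthesis, breakdown, phosphorylase kinase, protein phosphatase 1 with its targeting subunits, tethering with quality control, and kinases that act on the synthase. Among the 27 tested genes that are not of the 7, 0 passed limma in any of the 3 comparisons, with 1, 1 and 2 at an unadjusted p under 0.05 for LDL and then oxLDL against Control and for oxLDL against LDL (6.65, 3.86 and 3.91% of all genes tested), and 0 passed in any of the 17 alternative fits. Their median log2 differences were 0.02, -0.03 and -0.02 in that order, against -0.0018, -0.0028 and 0.00087 over all genes tested. Groups that did not overlap were found in 5, 3 and 3 of the 27, against 10.7, 7.33 and 8.31% of all genes tested.

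**Figure D3:**
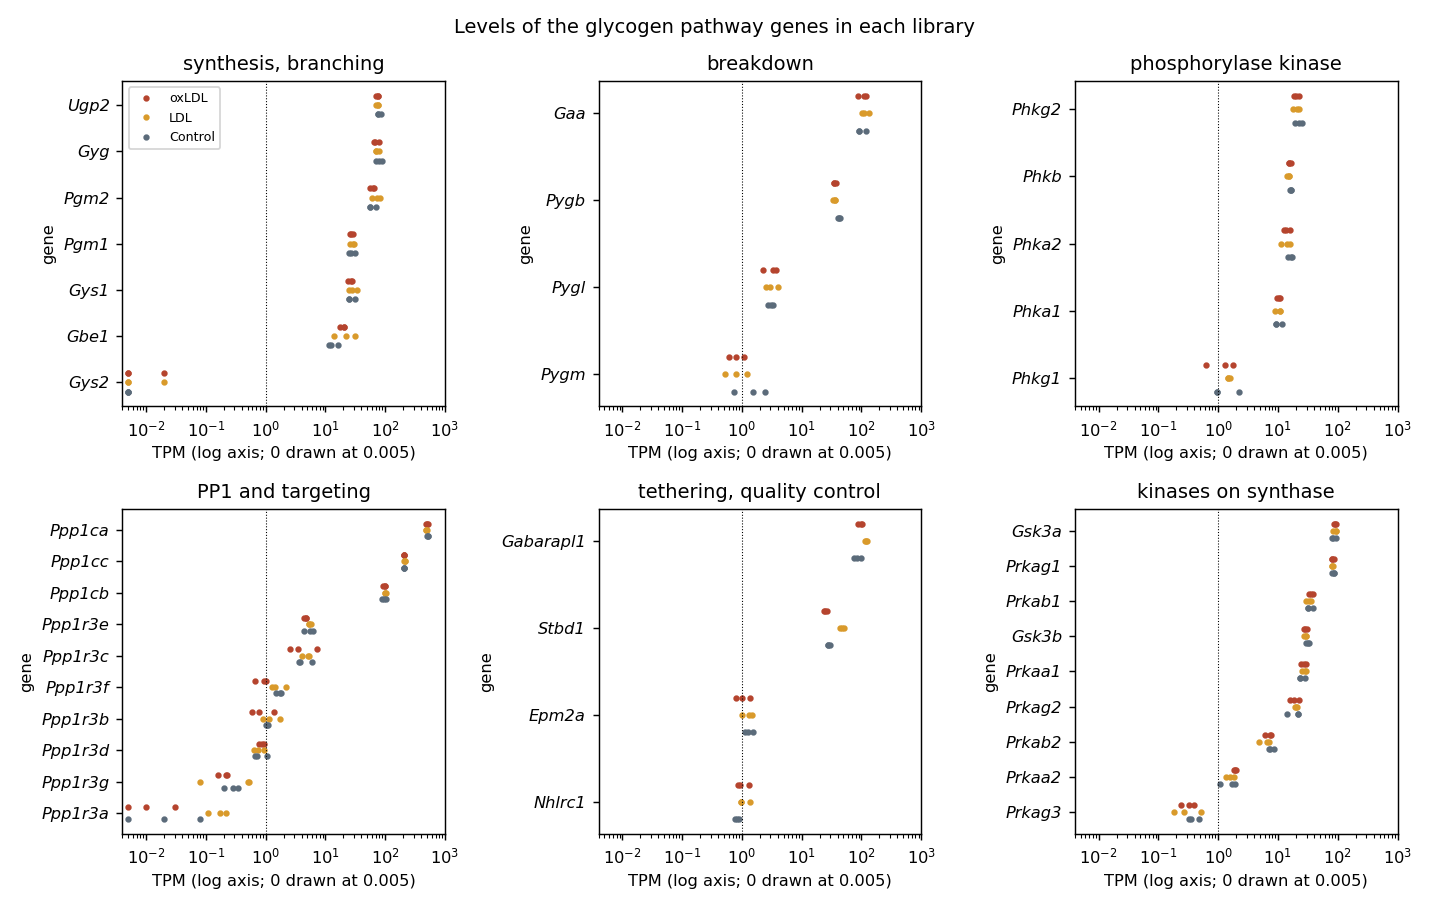
TPM on a log axis (values of 0 drawn at 0.005) of the genes of the 6 glycogen lists, with 1 gene left out, as 1 point a library, coloured by treatment, with a dotted line at 1 TPM. The LDL points of Stbd1 stand above both other groups, and those of Gabarapl1 do too, at 114 to 122 TPM with LDL against 75.6 to 103 TPM in the other libraries.

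Gabarapl1, the autophagosome protein that Stbd1 binds, was at 103, 86.5 and 99.4 TPM with oxLDL, 121, 114 and 122 TPM with LDL, and 97.3, 84.6 and 75.6 TPM in Control. The LDL libraries were above all others, and the log2 difference from Control was 0.47 (95% CI 0.24 to 0.70), which did not pass (adjusted p = 0.16). Epm2a and Nhlrc1, which encode laforin and malin, the quality control pair lost in Lafora disease, averaged 1.26 ± 0.236 and 1.11 ± 0.225 TPM with LDL, against 1.3 ± 0.206 and 0.827 ± 0.0603 TPM in Control (SD, n = 3 each). Gaa, the lysosomal glucosidase and the most abundant gene of the breakdown list, averaged 107 ± 16.9 TPM with oxLDL, 115 ± 15.1 TPM with LDL, against 100.2 ± 16.8 TPM in Control (SD, n = 3 each), and the log2 difference of 0.20 between LDL and Control did not pass (adjusted p = 0.98).

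Ugp2, which makes the UDP-glucose that the synthase uses and had the highest mean of the synthesis list, averaged 73.4 ± 3.38 TPM with oxLDL, 74.6 ± 2.85 TPM with LDL, against 79.4 ± 4.28 TPM in Control (SD, n = 3 each). Pgm2, a phosphoglucomutase, averaged 61.3 ± 4.21, 71.2 ± 10.8 and 60.2 ± 8.04 TPM in the same order. Gys2, the liver synthase, was listed at 0 to 0.02 TPM. Of the phosphorylase kinase subunits, which activate phosphorylase, Phkg2 had the highest mean, and Phka1 and Phkb averaged 10.3 ± 1.12 and 14.8 ± 0.734 TPM with LDL, against 9.99 ± 1.32 and 16.2 ± 0.398 TPM in Control (SD, n = 3 each). Gsk3a and Gsk3b, kinases that inhibit the synthase, averaged 90.0 ± 5.17 and 28.8 ± 1.03 TPM with LDL, against 85.8 ± 5.47 and 31.5 ± 1.8 TPM in Control (SD, n = 3 each), and neither difference passed (adjusted p = 1 and 0.91).

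In the list of protein phosphatase 1 genes the catalytic subunit Ppp1ca had the highest mean. Ppp1r3b and Ppp1r3d averaged 1.27 ± 0.438 and 0.777 ± 0.148 TPM with LDL, against 1.05 ± 0.0557 and 0.813 ± 0.206 TPM in Control (SD, n = 3 each). Ppp1r3f, singled out after its values were seen, was at 0.67 to 1.03 TPM with oxLDL, against 1.29 to 2.16 TPM with LDL and 1.51 to 1.83 TPM in Control, and its log2 difference of -0.51 from Control did not pass (adjusted p = 1).

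Glucose entry and trapping were described with 7 tested genes of a list of 10. Of these, 0 passed limma in any comparison, with 2, 0 and 1 at an unadjusted p under 0.05 for LDL and then oxLDL against Control and for oxLDL against LDL (6.65, 3.86 and 3.91% of all genes tested). Hk1, a hexokinase, had the highest mean of the list. Slc2a1, the glucose transporter GLUT1, averaged 53.6 ± 2.59 TPM with oxLDL, 63.7 ± 8.05 TPM with LDL, against 50.3 ± 7.23 TPM in Control (SD, n = 3 each). Hk2, the inducible hexokinase, averaged 21.5 ± 0.975, 27.5 ± 2.85 and 19.1 ± 1.48 TPM in the same order. Of 13 tested hypoxia marker genes, 2 of which are also in the glucose list, 0 passed limma in any comparison, with 6, 0 and 2 at an unadjusted p under 0.05 in the same order of comparisons (6.65, 3.86 and 3.91% of all genes tested). Their median log2 differences were 0.23, 0.08 and -0.13, against -0.0018, -0.0028 and 0.00087 over all genes tested. Ldha, lactate dehydrogenase A, had the highest mean of that list.

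Stbd1 is also known as a gene of striated muscle, where its human counterpart was first described, so cardiomyocyte markers are given beside it. Of 8 such markers, Tnnt2 was the 1 with a mean of at least 1 TPM, and the 8 summed to 10.3 to 34.6 TPM with oxLDL, 15.9 to 44.0 TPM with LDL and 10.5 to 65.4 TPM in Control. Tnnt2 itself was at 32.4, 17.7 and 9.59 TPM with oxLDL, 37.6, 13.6 and 11.8 TPM with LDL, and 63.0, 9.96 and 23.3 TPM in Control. Without Tnnt2, a choice made after the values were seen, the sum was 0.68 to 2.23 TPM with oxLDL, 2.95 to 6.40 TPM with LDL and 0.52 to 2.34 TPM in Control. LDL libraries stood above Control without overlap for 2 of the 8 markers, Myh6 and Actc1, and above oxLDL for 1, Myh6. Over all genes tested, groups did not overlap in either direction for 10.7% between LDL and Control and 8.31% between oxLDL and LDL. Myh6 and Actc1 averaged 0.267 and 0.529 TPM over the 9 libraries, below the level tested, so those shares do not cover them. The other 6 of the 8 markers overlapped between LDL and Control. Of these, Tnni3 was at 0.39 to 0.80 TPM with LDL and 0.27 to 0.68 TPM in Control. Myh6, the alpha myosin heavy chain of heart muscle, was at 0.23, 0 and 0.01 TPM with oxLDL, 0.67, 0.78 and 0.65 TPM with LDL, and 0.06, 0 and 0 TPM in Control. Ppp1r3a, the targeting subunit of striated muscle, was at 0 to 0.03 TPM with oxLDL, 0.11 to 0.22 TPM with LDL and 0 to 0.08 TPM in Control. Myh6, singled out after its values were seen, and Ppp1r3a were highest in the LDL libraries. The part of these markers in the Stbd1 values was not tested.

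Genes with a profile like that of Stbd1 were found by the root mean square difference between profiles of log2(TPM + 1) over the 9 libraries, each centred on its own mean. The 5 closest named genes among 13494 were Etfbkmt, Sap30, Scarb2, Ermp1 and Atp1b1, at differences of 0.0914, 0.151, 0.154, 0.16 and 0.167, where the profile of Stbd1 itself has a root mean square of 0.391. Etfbkmt, a lysine methyltransferase of the electron transfer flavoprotein, was at 5.58, 4.36 and 6.05 TPM with oxLDL, 9.79, 10.9 and 11.9 TPM with LDL, and 6.05, 5.51 and 5.26 TPM in Control. Scarb2, the lysosomal membrane protein LIMP-2, was at 136, 108 and 169 TPM with oxLDL, 217, 215 and 231 TPM with LDL, and 153, 145 and 123 TPM in Control. In all 5 the LDL libraries were above the 6 others. The 9 points share 3 treatments and 3 replicate numbers, and the genes were picked for this likeness, so no test was made.

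**Figure D4:**
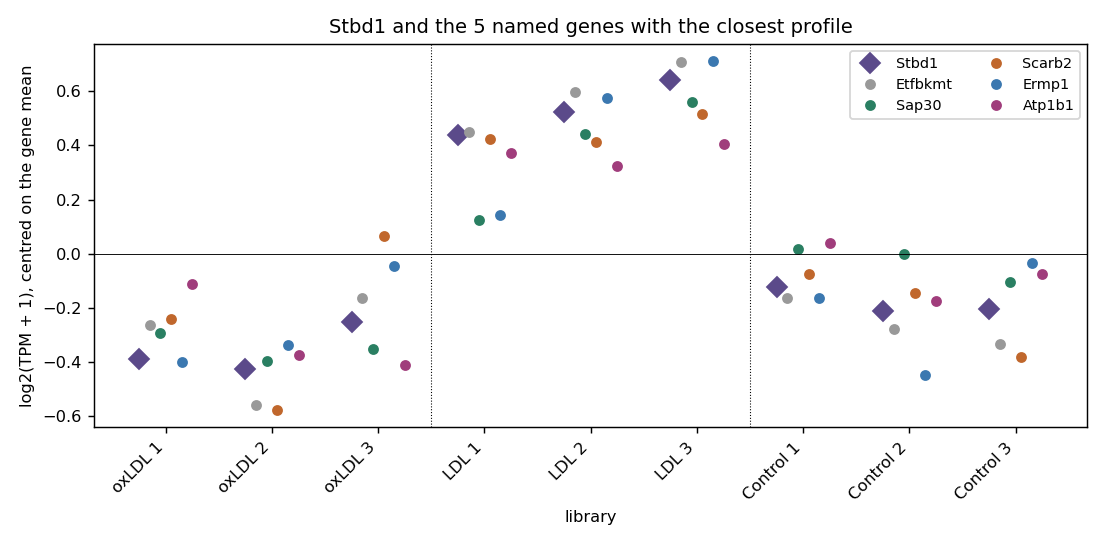
Log2(TPM + 1) centred on each gene's mean (vertical axis) in the 9 libraries (horizontal axis) for Stbd1 (diamonds) and the 5 closest named genes (circles). All 6 genes are highest in the 3 LDL libraries, and Stbd1 has 43.7 to 50.6 TPM there against 23.6 to 29.3 TPM in the 6 others.

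Scarb2 is also a neighbour of Stbd1, on the opposite strand with its 5′ end 96.2 kb before Stbd1 (chromosome 5, 92441314 to 92506833). Within 500 kb of Stbd1 the table lists 33 other genes, of which 9 were tested. The window was looked at after the values were seen, so it is described without a test. LDL libraries stood above Control libraries without overlap in 3 of these 9, Art3, Scarb2 and Shroom3, against 10.7% of all genes tested in either direction. Art3, an ADP-ribosyltransferase family gene, averaged 22.0 ± 1.96 TPM with LDL, against 16.1 ± 0.459 TPM in Control (SD, n = 3 each, log2 difference 0.43). Shroom3, an actin-binding protein of cell shape, averaged 11.4 ± 1.75 TPM with LDL, against 8.9 ± 0.528 TPM in Control (SD, n = 3 each, log2 difference 0.32). Scarb2 averaged 221 ± 8.59 TPM with LDL, against 141 ± 15.4 TPM in Control (SD, n = 3 each, log2 difference 0.65). Ccdc158, which lies on the opposite strand with its 3′ end 1.38 kb past Stbd1 and was below the level tested, was at 0.56 to 1.01 TPM with LDL and 0.20 to 0.34 TPM in Control. Nup54, a nuclear pore gene that lies between Art3 and Scarb2, had a log2 difference of 0.01 (95% CI -0.24 to 0.26).

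**Figure D5:**
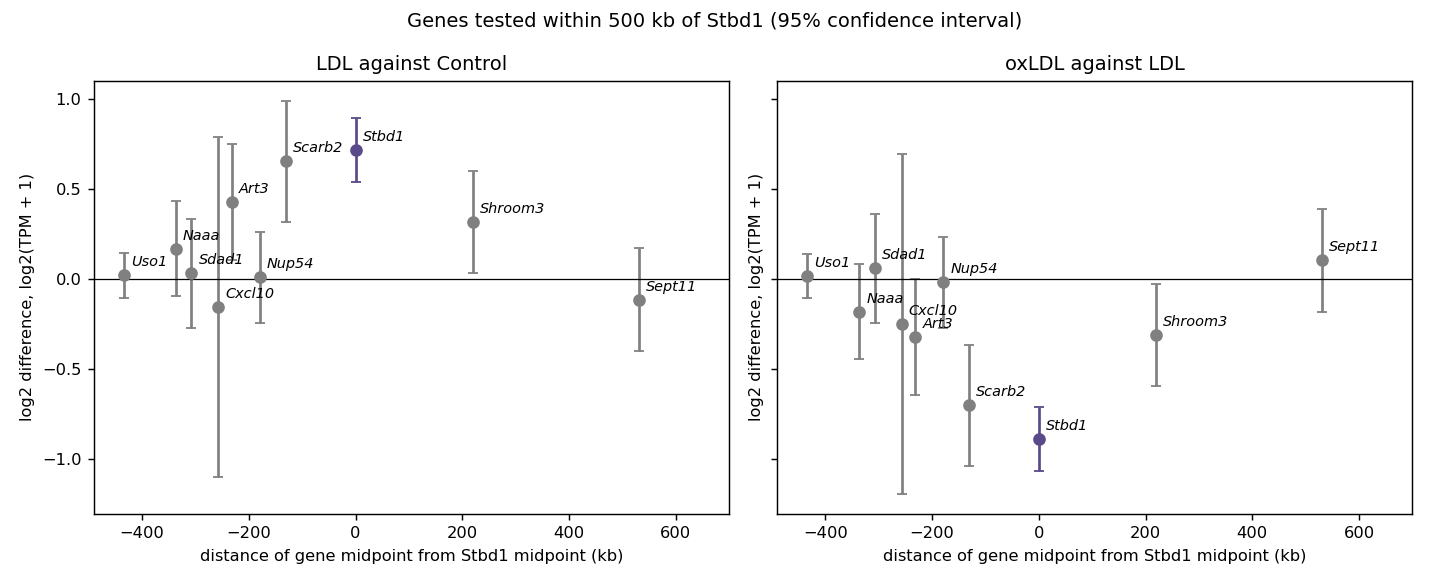
Log2 difference on the log2(TPM + 1) scale (vertical axis, with 95% confidence intervals) of the 10 genes tested within 500 kb of Stbd1, Stbd1 included, by distance of their midpoint from that of Stbd1 in kb, for LDL against Control and oxLDL against LDL. Stbd1 and Scarb2 are at 0.71 and 0.65 in the first panel and at -0.89 and -0.70 in the second, while Nup54 is at 0.01 and -0.02.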

How the data were processed

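Transcript levels of 9 libraries were deposited as TPM, which the authors made from paired 100 bp reads (per the labels' protocols, 50 ng of total RNA, amplified as cDNA, and a kit that does not mark strand). RSEM 1.3.1, STAR and mm10 are named in the submitters' processing notes, with the STAR version and the annotation not given in the sources used here. Columns summed to 999998.81 to 1000000.43, no column was left out, and depth is unknown, so no counting interval is given.

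Values were analysed as log2(TPM + 1) for the 13495 genes averaging 1 TPM or more, with limma 3.58.1 in R 4.3.3 (all 9 libraries, treatment as the term, mean-dependent prior, two-sided, 6 residual degrees of freedom, Benjamini-Hochberg adjustment over the genes tested, threshold 0.05). All adjusted p-values are limma's. The fit was tested on simulated data with independent libraries, so the effect of deviations shared within a replicate number was not tested there. An exact permutation of 3 against 3 libraries cannot go below 0.1, so none was run. The 7 genes, the lists and the genes named were chosen with earlier results of these data known. The genes named are the 7, pathway genes that passed, the most abundant gene of each list, a set group of others (Ppp1r3a among them) and the 5 closest to Stbd1. Ppp1r3f, the neighbours of Stbd1 and the cardiomyocyte markers shown singly were picked with their values in view. The list counts include 1 gene that is not reported here by name.

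Replicate numbers come from the titles. Deviations from group means had correlations of 0.172 to 0.497 in 9 same-numbered pairs and of -0.309 to 0.13 in 18 other pairs. Ratios within a number and a fit with the number as a block are therefore also given. The main fit, with all intervals shown, has no such block because the labels do not say what the numbers mark. Gene positions are GENCODE M21 (GRCm38). Promoter windows are RefSeq's in GRCm38.p6, with all 7 symbols matched.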

Additional observations from a re-analysis of the deposited data

How the results depend on the processing

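The Stbd1 log2 difference moved by less than its spread between libraries in all 17 alternatives of each comparison, over 0.64 to 0.76 for LDL against Control, -0.23 to -0.14 for oxLDL against Control and -0.94 to -0.80 for oxLDL against LDL. The number of genes that passed among all tested moved more, from 45, 2 and 14 for LDL and then oxLDL against Control and for oxLDL against LDL, and the cause was not tested beyond what each setting changes by construction. Keeping every gene above 0 in at least 1 library gave 19, 10 and 8, the replicate block 115, 17 and 35, and the 6 compared libraries alone 9, 1 and 6. A pseudocount of 5 gave 1 for oxLDL against Control. Leaving out 1 library gave 4 to 37, 1 to 3 and 1 to 10, the lowest without LDL 2 in the first and without oxLDL 2 in the last. The replicate block left the calls among the 7 glycogen genes as they were. Depth is unknown, so the precision of genes near 1 TPM, such as Pygm and Ppp1r3b, rests on the spread of 3 libraries alone.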
